A study of Homo sapiens with 6 samples.

Results

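Maps of BRD8 in 2 human lung epithelial cell lines were compared site by site: how many regions the lines shared, how similarly both lines ranked them, and where in the genome the regions of 1 line lay. BRD8 was mapped by ChIP-seq, which sequences the DNA that an antibody pulls down with its protein. Calu3 is a lung adenocarcinoma line and 16HBE14o- a transformed bronchial epithelial line. Both were untreated, were kept in DMEM with 10% FBS, and were precipitated with the same Active Motif antibody. Each line gave 2 replicates, which the authors had pooled into 1 list of reproducible peaks on hg19, so neither a spread between replicates nor a test across them can be given, and intervals cover counting error only. Each line stands for a single donor's cells and for no other. Regions were made by joining peaks of a list that overlapped by 1 bp or more, with the strongest summit kept. The 9769 Calu3 peaks gave 8184 regions and the 9505 peaks of 16HBE14o- gave 9504, so 17688 of the 33759 regions in the 3 lists of the series were compared. The remaining list, CTCF in Calu3, served as a second readout that the definition of sharing had not used.

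BRD8 carries a bromodomain, a fold that recognises acetylated lysine, and belongs to NuA4/TIP60, a complex that acetylates histones and exchanges a histone variant in nucleosomes at active genes. CTCF is a zinc finger protein that marks insulators and the anchors of chromatin loops. Peaks of a chromatin protein found in several cell types often fall at such constitutive sites, while sites of 1 cell type often lie at distal enhancers.

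Each list held many regions with a counterpart in the other line and many without one. Regions that overlapped by 1 bp or more counted as shared. By that definition 50.1% of Calu3 regions (4103 of 8184, 95% exact interval 49.0 to 51.2%) and 43.4% of 16HBE14o- regions (4127 of 9504, 42.4 to 44.4%) were shared, in 4129 overlapping pairs. The lists differ in length, and when the 8184 strongest regions of each were compared the shares were 46.3% and 46.5%. A Calu3 region met more than 1 region of 16HBE14o- in 26 cases, and the reverse occurred in 2. Just inside the limit, 6 pairs overlapped by under 20 bp (0.145%). Just outside it, 18 Calu3-only and 29 16HBE14o--only regions lay within 100 bp of a region of the other line. In 88.6% of pairs the narrower 16HBE14o- region lay wholly inside the Calu3 region. Summits of a pair were a median of 29 bp apart (quartiles 14 and 53 bp), with 73.2% within 50 bp and 91.2% within 100 bp. Of the 363 pairs with summits over 100 bp apart, 127 had a Calu3 region built from several peaks, as did 839 of all 4129 pairs. Regions of 1 line were mostly far from any region of the other. The median gap was 66.9 kb for Calu3-only regions (quartiles 18.1 and 215 kb) and 84.1 kb for 16HBE14o--only regions (23.4 and 290 kb), and 4.51% and 2.94% had a gap of at most 1 kb.

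Sharing fell with signal in both lists. Each list was divided into 10 deciles by the authors' signal, whose unit is not given and whose scale may differ between lists. In Calu3 82.7% of the strongest decile was shared (79.9 to 85.2%), 51.0% of the fifth and 22.4% of the weakest (19.6 to 25.4%). In 16HBE14o- the same deciles stood at 73.3% (70.4 to 76.1%), 42.8% and 22.5% (19.9 to 25.3%). The strongest decile thus still held 142 Calu3-only and 254 16HBE14o--only regions. Joining several peaks into a wide region did not go with more sharing at a given signal. Of the 1538 Calu3 regions of several peaks, 820 were shared, and the odds ratio for several peaks in shared against Calu3-only regions was 1.17 (1.05 to 1.31) before and 0.989 (0.876 to 1.12) after stratifying by decile. The Calu3 regions with the most peaks illustrate this. A region of 4 peaks in 11p11.2 (chromosome 11, 45792818 to 45794076) stood at percentile 88.8 and met a 16HBE14o- region at percentile 8.19. The other regions of 4 peaks, in 3p21.31 (chromosome 3, 46745740 to 46747292) and 17q21.33 (chromosome 17, 48246015 to 48247454), were Calu3-only. The strongest regions of 3 peaks lay in 5q31.2 (chromosome 5, 139167104 to 139167892), shared at percentiles 97.3 and 90.8, and in 3q25.31 (chromosome 3, 156391864 to 156392580), Calu3-only at percentile 89.6. The 16HBE14o- list had 1 region of 2 peaks, in 6p21.32 (chromosome 6, 33359149 to 33359584), which was not shared.

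**Figure D1:**
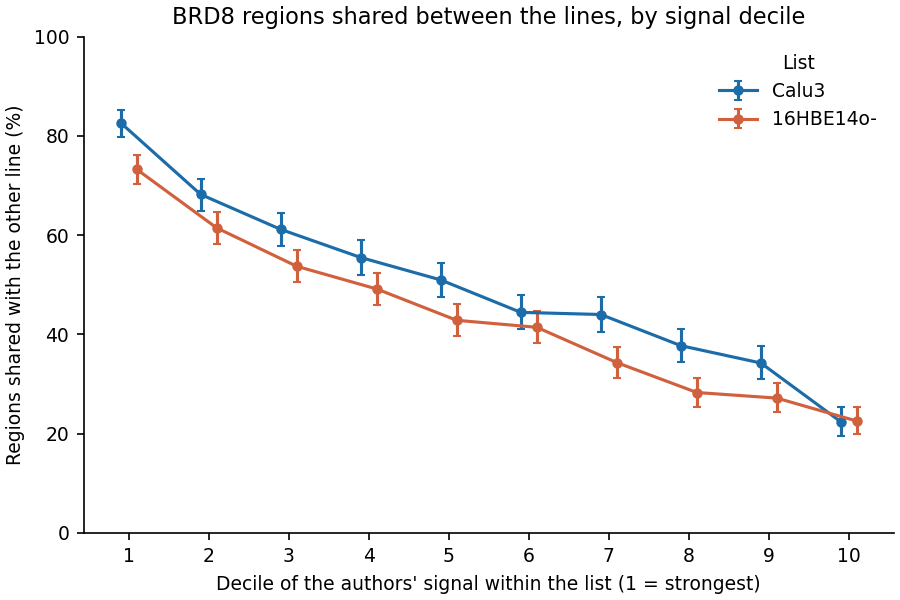
Share of BRD8 regions that overlapped a region of the other line (vertical axis, %) by decile of signal within the list (horizontal axis, 1 strongest), for Calu3 and 16HBE14o-; bars are 95% exact intervals. The share went down at every step in both lists, to 22.4% in Calu3 and 22.5% in 16HBE14o-.

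At shared regions the ranks of the lines were only loosely related. Ranks are given as percentiles of signal within a list, with 100 the strongest end. Across the 4129 pairs Spearman's rho was 0.292 and Pearson's r 0.259, a description across regions of 2 pooled lists. Within the 20 chromosomes that held at least 50 pairs, rho ran from 0.161 to 0.487. On those with fewer pairs it was -0.168 on chromosome 18 (43 pairs), 0.012 on chromosome 21 (26 pairs) and 0.430 on chromosome 13 (28 pairs). The percentiles of a pair differed by a median of 21.0 points in either direction. They lay within 10 points of each other in 27.6% of pairs and over 50 points apart in 15.4%, with 283 pairs that much higher in Calu3 and 351 in 16HBE14o-. The middle of the distribution favoured neither line, with a median difference, Calu3 minus 16HBE14o-, of 0.12 points (quartiles -21.8 and 20.3).

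The relation was concentrated at the strong end. Of the 681 pairs in the strongest Calu3 decile, 278 were also in the strongest 16HBE14o- decile (40.8% of these and 39.8% of the 698 strongest pairs of 16HBE14o-). In the weakest decile of both there were 11 pairs. The weakest deciles held only 183 shared Calu3 and 214 shared 16HBE14o- regions, so the 278 and the 11 also reflect how often weak regions were shared. Partners of the strongest Calu3 decile had a median 16HBE14o- percentile of 83.7 (quartiles 63.1 and 96.4). From the sixth decile downward the medians moved between 51.2 and 57.3 with no steady order. In the other direction the medians were 83.8 for the strongest 16HBE14o- decile and between 47.4 and 54.4 from the sixth downward. Strong regions in one line could be weak in the other: 112 pairs of the strongest Calu3 decile were in the lower 50% of 16HBE14o-, and 148 pairs of the strongest 16HBE14o- decile in the lower 50% of Calu3. Pairs with a listed CTCF peak had a rho of 0.278 (3562 pairs) and those without one 0.117 (567 pairs). Pairs without CTCF were also weaker, with median percentiles of 40.5 in Calu3 and 43.8 in 16HBE14o- against 66.8 and 67.6.

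**Figure D2:**
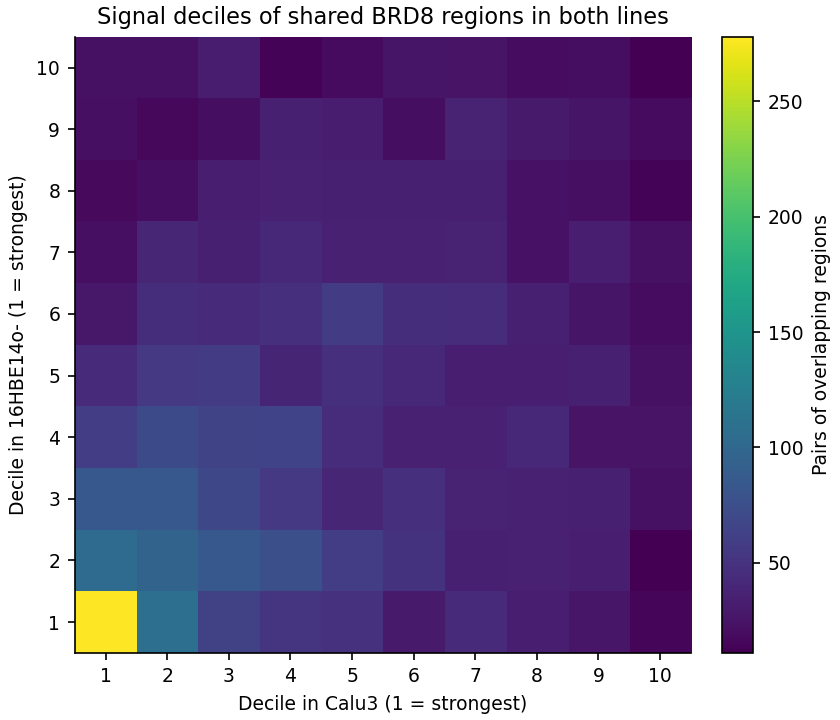
Number of overlapping pairs (colour) by signal decile in Calu3 (horizontal axis) and in 16HBE14o- (vertical axis), 1 being strongest. The cell of the strongest decile in both lines held 278 pairs and the cell of the weakest in both 11. Fewer regions were shared in the weakest deciles (183 in Calu3 and 214 in 16HBE14o-).

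Named pairs show both extremes. The pairs highest in both lines, by the lower of their percentiles, began with 20q13.32 (chromosome 20, 56784786 to 56785386 in Calu3), ranked 1 and 2. At 11q13.4 (chromosome 11, 72145053 to 72145613) the region ranked 14 in Calu3 and 10 in 16HBE14o-, with summits 6 bp apart. At 5p12 (chromosome 5, 43105743 to 43106402) the ranks were 16 and 4 and the summits were 1 bp apart. A region in 19q13.2 (chromosome 19, 41140293 to 41140795) ranked 15 and 19, and one in Xp22.2 (chromosome X, 10087435 to 10087985) ranked 7 and 21. All 5 overlapped a listed CTCF peak, as did 95.9% of shared Calu3 regions in the strongest decile. The strongest 16HBE14o- region of all, in 9q34.13 (chromosome 9, 134615518 to 134615615), was not among them, since its partner stood at percentile 77.1 in Calu3.

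The pairs that most favoured Calu3 were high in that list and near the bottom of the other. A region in 6q23.2 (chromosome 6, 133089105 to 133089791) stood at percentile 95.6 in Calu3 and 0.14 in 16HBE14o-, with summits 195 bp apart. In 12q24.31 (chromosome 12, 125424169 to 125424644) the percentiles were 96.6 and 1.68, with summits 10 bp apart and no listed CTCF peak. The others lay in 3q27.1 (chromosome 3, 183100143 to 183100618, 95.3 against 2.78), 19q13.2 (chromosome 19, 42637099 to 42637774, 96.0 against 3.91) and 8q24.3 (chromosome 8, 140643271 to 140643390, 92.5 against 0.44). The pairs that most favoured 16HBE14o- were 6q21 (chromosome 6, 114180004 to 114180681), at percentile 3.81 in Calu3 and 96.5 in 16HBE14o-, and 20q13.32 (chromosome 20, 58146565 to 58147040), at 5.66 and 98.3. They were followed by 11q13.2 (chromosome 11, 66025436 to 66025911, 6.27 against 98.0), 20q13.13 (chromosome 20, 47520979 to 47521707, 4.91 against 95.4) and 1p13.3 (chromosome 1, 109655226 to 109655701, 4.71 against 94.6). At 11q13.2 and 20q13.13 the ranked summits were 233 and 315 bp apart.

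Strong regions of 1 line could also stand alone. A gap of over 100 kb to the nearest region of the other line was found for 1662 Calu3-only (40.7%) and 2473 16HBE14o--only regions (46.0%). The strongest of these in Calu3 lay in 10p15.1 (chromosome 10, 4891829 to 4892464) at percentile 99.7, and its nearest 16HBE14o- region was 1238 kb away. The next lay in 3q26.2 (chromosome 3, 167765065 to 167765645), with a gap of 1101 kb, and in 11p15.1 (chromosome 11, 19092778 to 19093049), with a gap of 827 kb. They were followed by 2q13 (chromosome 2, 114361680 to 114362011, gap 152 kb) and 17p11.2 (chromosome 17, 18529040 to 18529339, gap 408 kb), and 17p11.2 alone among the 5 had no listed CTCF peak. All 5 stood at or above percentile 98.0. In 16HBE14o- the strongest lay in 3p12.1 (chromosome 3, 87019019 to 87019242) at percentile 99.8, with the nearest Calu3 region 534 kb away. The others were 6q23.2 (chromosome 6, 131949386 to 131949609, gap 651 kb), 3q21.1 (chromosome 3, 123166863 to 123167086, gap 161 kb), 3p11.2 (chromosome 3, 87347350 to 87347573, gap 205 kb) and 20q13.33 (chromosome 20, 59804295 to 59804518, gap 108 kb). The 3p12.1 and 3p11.2 regions had no listed CTCF peak and both lay in the same 1 Mb bin, where regions of 16HBE14o- alone prevailed.

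CTCF, which sharing had not used, was more frequent at shared regions at every level of signal. Of shared Calu3 regions 86.2% (3537 of 4103) overlapped a listed Calu3 CTCF peak, against 55.0% of Calu3-only regions (2243 of 4081). For 16HBE14o- the shares were 85.8% (3543 of 4127) and 49.5% (2661 of 5377). Within signal deciles the Mantel-Haenszel odds ratio was 3.62 (3.23 to 4.05) in Calu3 and 4.68 (4.21 to 5.21) in 16HBE14o-, against 5.12 and 6.19 without deciles. Single deciles gave 2.50 to 4.93 in Calu3 and 3.23 to 6.08 in 16HBE14o-. In the weakest decile 69.4% of shared and 31.5% of Calu3-only regions overlapped CTCF, and in 16HBE14o- 70.6% and 28.3%. In the strongest decile the Calu3 shares were 95.9% and 85.2%. CTCF was mapped in Calu3 only. For the 16HBE14o- list both measures therefore need a peak called in Calu3, and how much of its odds ratio comes from that was not tested.

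**Figure D3:**
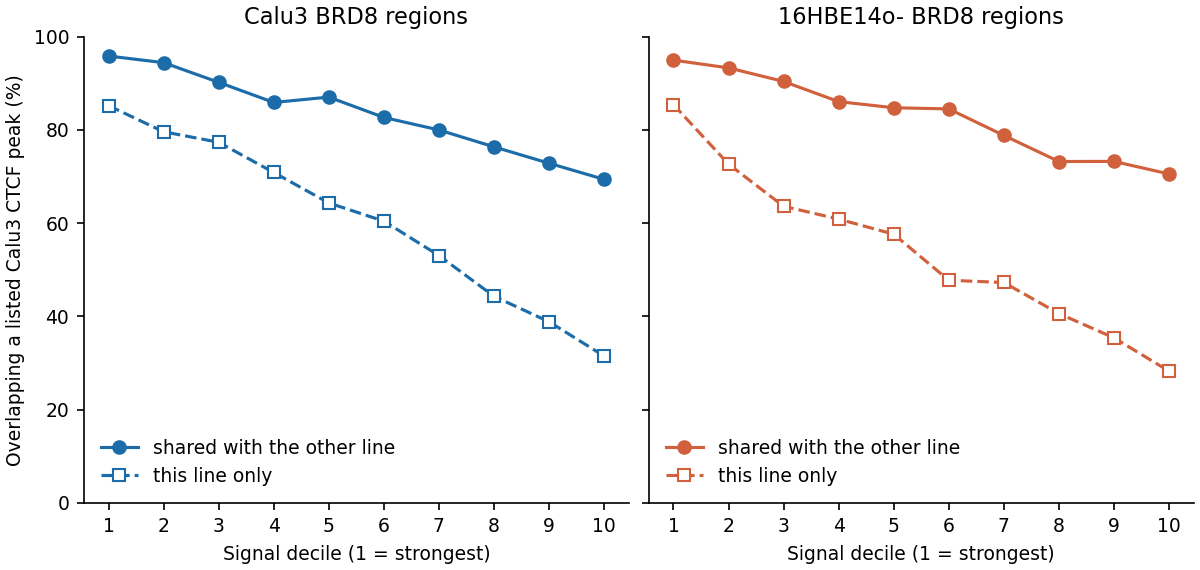
Share of BRD8 regions that overlapped a listed Calu3 CTCF peak (vertical axis, %) by signal decile (horizontal axis, 1 strongest), for regions shared with the other line (filled) and regions of 1 line (open). In the weakest decile the shares were 69.4% and 31.5% in Calu3 and 70.6% and 28.3% in 16HBE14o-.

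Line-only regions were spread over much of the genome but gathered in part of it. Of 3053 bins of 1 Mb, 1399 held a Calu3-only region, 1760 a 16HBE14o--only region and 1023 both. A further 840 held no BRD8 region of either line. The fullest 5% of bins (153) held 33.3% of Calu3-only regions, 27.9% of 16HBE14o--only regions and 35.5% of shared Calu3 regions, so line-only regions were no more gathered than shared ones by this measure. The variance of the number per bin was 3.98 times its mean for Calu3-only, 3.76 for 16HBE14o--only and 4.35 for shared Calu3 regions. Calu3-only and 16HBE14o--only regions had 14 of their 153 fullest bins in common (9.15% of each list of bins). The 153 bins are 5.01% of all bins and 6.91% of those with any region, so this number in common was near that background. The background takes every bin as equally likely to be full, so it cannot decide whether the lines are set apart. Shared regions had 50 in common with Calu3-only and 55 with 16HBE14o--only regions. Over the 2213 bins with any region, the number of Calu3-only regions had a rho of 0.406 with the number of shared regions and of -0.064 with the number of 16HBE14o--only regions.

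**Figure D4:**
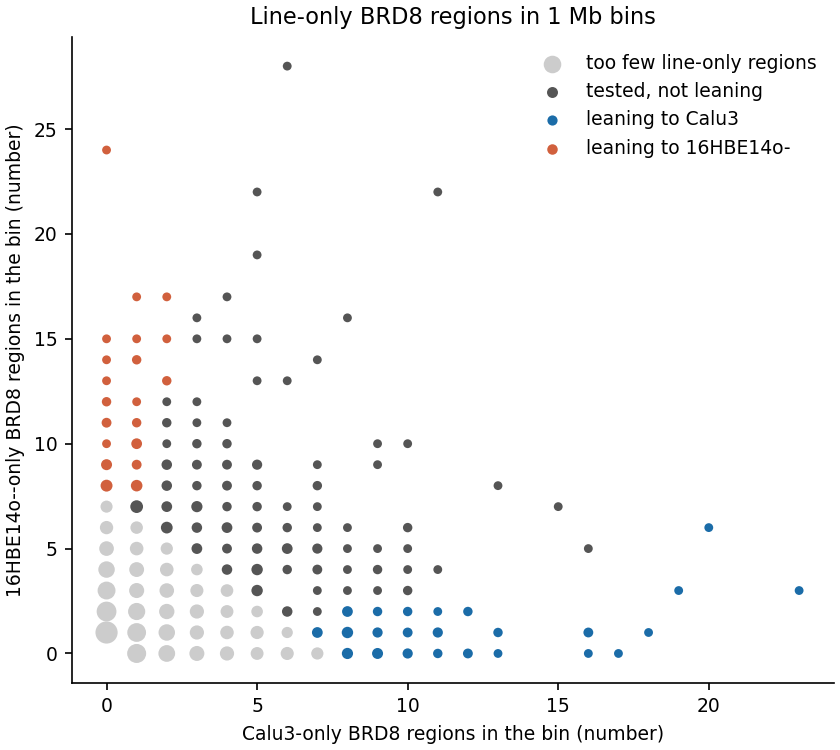
Number of Calu3-only (horizontal axis) and 16HBE14o--only regions (vertical axis) in each 1 Mb bin that held at least 1; points grow with the number of bins at the same place, and colours mark bins leaning to a line by at least 4 times. The 75 bins leaning to Calu3 and the 59 leaning to 16HBE14o- lie along the axes, and 200 bins with at least 8 line-only regions lie between them.

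A bin was said to lean to a line where it held at least 8 line-only regions and a share of that line's line-only regions at least 4 times that of the other line, after 0.5 was added to each number. Of 334 bins with enough regions, 75 leaned to Calu3 (22.5%) and 59 to 16HBE14o- (17.7%). These numbers depend on how many regions a bin holds: in the upper 50% of each list 23 and 21 bins leaned, and with bins of 0.5 Mb 28 and 27. The 75 bins held 770 Calu3-only regions, 18.9% of all, and 70 of 16HBE14o- alone. The 59 bins held 611 16HBE14o--only regions, 11.4% of all, and 34 of Calu3 alone. Leaning bins often had a neighbour of the same direction. Of the 75, 41 lay next to another that leaned to Calu3. Of the 59, 32 lay next to another that leaned to 16HBE14o-, and none of either kind lay next to one of the opposite kind. How many such neighbours their placement by chromosome alone would give was not tested. Chromosome 3 held 31 of the bins leaning to Calu3, out of 34 there with enough regions, so many of the neighbours lay on that chromosome. It was followed by chromosomes 11 (10 of 29), 7 (9 of 16) and 19 (8 of 27). Those leaning to 16HBE14o- were spread over 16 chromosomes, led by chromosomes 14 (12 of 21 with enough regions), 6 (8 of 17) and 11 (7 of 29).

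Pooled over leaning bins, ranks at shared regions were higher in the line whose line-only regions prevailed around them. The leaning bins were not chosen on those ranks, although both come from the same pooled lists. In bins leaning to Calu3 the 267 pairs had median percentiles of 81.2 in Calu3 and 54.3 in 16HBE14o-, and the median difference was 17.7 points (quartiles 0.25 and 40.2), with 75.3% of pairs higher in Calu3. In bins leaning to 16HBE14o- the 206 pairs had medians of 55.2 and 81.4, and the median difference was -17.5 points (quartiles -44.1 and 1.33), with 27.7% higher in Calu3. Bin by bin the direction was not uniform. Of the 59 bins leaning to Calu3 that held a shared pair, the median difference was above 0 in 52 and below 0 in 7. Of the 51 such bins leaning to 16HBE14o-, it was below 0 in 40 and above 0 in 11. Many of these medians rest on 1 to 3 pairs, in 29 and 26 bins respectively. In the 200 other bins with enough line-only regions the 1308 pairs differed by a median of -0.94 points. The CTCF overlap of line-only regions varied more between kinds of bin in 16HBE14o- than in Calu3. For Calu3-only regions it was 56.1% in bins leaning to Calu3, 58.8% in bins leaning to 16HBE14o-, 52.8% in the 200 others and 55.4% in bins with under 8 line-only regions. For 16HBE14o--only regions it was 46.8% in bins leaning to 16HBE14o-, 72.9% (of 70 regions) in bins leaning to Calu3, 53.9% in the 200 others and 47.7% in bins with under 8. The Calu3 CTCF list had a median of 17 regions in a bin leaning to Calu3, 11 in a bin leaning to 16HBE14o- and 19 in the 200 others. No input library was used here, so the amount of DNA at a place and the occupancy of BRD8 there cannot be told apart.

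The 6 bins with the most Calu3-only regions among those leaning to Calu3 each held 20 to 30 Calu3 regions and 3 to 14 16HBE14o- regions. In 8q24.3 the bin from 144 to 145 Mb held 23 Calu3-only and 3 16HBE14o--only regions beside 5 shared Calu3 regions, and the next bin held 20, 6 and 8. In 17q12 (36 to 37 Mb) the numbers were 19, 3 and 8. In 19q13.32 (46 to 47 Mb) they were 18, 1 and 12. The bin from 2 to 3 Mb on chromosome 11, in 11p15.5 to 11p15.4, held 17 Calu3-only regions, no 16HBE14o--only region and 3 shared ones. All 17 overlapped a listed CTCF peak, against 55.0% of all Calu3-only regions. Their median percentile was 71.3, and CTCF overlap rises with signal: among Calu3-only regions of the third decile it was 77.4%. The 3 shared pairs stood a median of 43.5 points higher in Calu3. These bands hold an imprinted cluster with H19, IGF2 and KCNQ1, in which CTCF is known to act as an insulator. The sixth bin, in 3q25.1 (149 to 150 Mb), held 16 Calu3-only regions and none of 16HBE14o- alone, and 6 of the 16 overlapped CTCF. In all 6 bins shared pairs stood higher in Calu3, by medians of 8.91 to 43.5 points over 3 to 12 pairs.

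The bins with the most 16HBE14o--only regions among those leaning to 16HBE14o- were led by chromosome 11, 102 to 103 Mb. It held 24 such regions, no Calu3-only region and 2 shared Calu3 regions. Of the 24, 6 overlapped a listed Calu3 CTCF peak, against 49.5% of all 16HBE14o--only regions. The bin spans 11q22.1 to 11q22.3, bands that hold YAP1, a coactivator of the Hippo pathway, the apoptosis inhibitors BIRC2 and BIRC3, and a cluster of matrix metalloproteinase genes. Chromosome 14 gave 2 of the 6 bins: 14q32.2 (100 to 101 Mb) held 17 16HBE14o--only and 1 Calu3-only region, and 14q32.33 (105 to 106 Mb) held 15 and 1. In the latter 13 of the 15 overlapped CTCF. The others were 20q13.32 to 20q13.33 (58 to 59 Mb, 17 against 2), 16q21 to 16q22.1 (66 to 67 Mb, 15 against 0) and 11q13.4 (71 to 72 Mb, 15 against 2). In 5 of the 6 the shared pairs stood lower in Calu3, by medians of -17.7 to -42.1 points over 3 to 12 pairs, and the single pair in 11q13.4 differed by -11.3 points.

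The longest uninterrupted stretches were on chromosomes 3 and 11. From 155 to 161 Mb on chromosome 3 (3q25.31 to 3q26.1) 6 bins in a row leaned to Calu3. They held 60 Calu3-only and 2 16HBE14o--only regions beside 12 shared ones, which stood a median of 43.1 points higher in Calu3. Of the 60, 35 overlapped CTCF, close to the 55.0% of all Calu3-only regions. A second stretch of 5 bins, from 182 to 187 Mb (3q26.33 to 3q27.3), held 57 Calu3-only and 2 16HBE14o--only regions. For 16HBE14o- the longest was from 100 to 103 Mb on chromosome 11, 3 bins with 44 16HBE14o--only regions, none of Calu3 alone and 2 shared. Of the 44, 9 overlapped a listed Calu3 CTCF peak, and that list had 10 regions in the whole stretch. As many bins in a row were found in 21q22.3 (43 to 46 Mb), with 26 16HBE14o--only and 1 Calu3-only region. There 13 of the 26 overlapped CTCF, close to the 49.5% of all 16HBE14o--only regions.

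Sharing was then judged within signal deciles, by comparing the shared regions of a place with the number expected if each region were shared as often as its decile. For bins with at least 5 regions of a list, the median ratio of observed to expected was 1.01 in Calu3 (quartiles 0.63 and 1.37) and 1.02 in 16HBE14o- (0.65 and 1.42). Sharing was at most 0.5 of that expected in 122 of 630 Calu3 bins (19.4%) and in 123 of 729 16HBE14o- bins (16.9%). In the upper 50% of each list these numbers were 63 and 69. A total of 36 and 45 bins respectively had no shared region. Low bins mostly held few regions of the other list. Of the 434 bins with at least 5 regions in both lists, 8 were low for Calu3, 6 for 16HBE14o- and 2 for both. Of the low bins, 46 of 122 also leaned to Calu3 and 29 of 123 to 16HBE14o-. Among all bins judged for sharing, 75 of 630 leaned to Calu3 and 59 of 729 to 16HBE14o-. Both calls count the same line-only regions, so this overlap is partly built in.

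Among bins with at least 10 regions of a list, the lowest ratios in Calu3 were 0, with 11 regions each in 12q24.33 (132 to 133 Mb, 5.93 shared regions expected), 3p22.1 (42 to 43 Mb, 5.13 expected) and 3q22.1 to 3q22.2 (133 to 134 Mb, 5.54 expected). They were followed by 3q26.2 to 3q26.31 (170 to 171 Mb, 1 of 11 shared) and 11q12.1 (58 to 59 Mb, 1 of 11). The 12q24.33 and 3p22.1 bins held no 16HBE14o- region and the others held 1 each. At most 1 such region was thus there to be met, whatever the decile expectation. In 16HBE14o- the lowest were 17q12 to 17q21.2 (38 to 39 Mb), with 0 of 13 shared and 5.78 expected, and 11q22.1 (101 to 102 Mb), with 0 of 11 and 4.71 expected. In the 17q12 to 17q21.2 bin, whose bands hold RARA, a retinoic acid receptor, and type I keratin genes, none of the 13 overlapped a listed Calu3 CTCF peak. In 19p13.12 (14 to 15 Mb) 1 of 13 was shared and 10 of the 12 others overlapped CTCF, so the bins of least sharing differed widely in CTCF. The remaining ones were 11q13.4 (71 to 72 Mb, 1 of 16) and 15q14 to 15q15.1 (40 to 41 Mb, 1 of 11). Calu3 had no region in the 11q22.1 bin and 1 in the 19p13.12 bin. It had 2 in 17q12 to 17q21.2, 2 in 15q14 to 15q15.1 and 3 in 11q13.4. The low ratios here too were largely set by how few regions the other list held.

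In other bins nearly all regions of one list were shared. For Calu3 the highest ratios ran from 1.74 to 1.81. They were found in 14q32.33 (105 to 106 Mb, 12 of 13 shared), 20q13.2 (50 to 51 Mb, 10 of 11), 14q32.2 (100 to 101 Mb, 9 of 10), 2p13.3 (70 to 71 Mb, 8 of 10) and 1p34.3 (36 to 37 Mb, 9 of 10). The same held for 16HBE14o- in part only: in 14q32.33 12 of its 27 regions were shared (ratio 0.79) and in 14q32.2 9 of 26 (0.75), while the other 3 bins had ratios of 1.10 to 1.59. For 16HBE14o- they ran from 2.06 to 2.34, in 3q27.1 (183 to 184 Mb, 9 of 10 shared), 7p22.1 (5 to 6 Mb, 10 of 11), the 1q32.1 bins from 205 to 206 Mb (13 of 15) and 204 to 205 Mb, and 3q21.3 (128 to 129 Mb, 10 of 12). Calu3 was below expectation in 3q27.1 (9 of 20 shared, ratio 0.86) and 7p22.1 (10 of 21, 0.85), and the other 3 bins had Calu3 ratios of 1.01 to 1.20. The most shared regions in a bin were 18, in 20q13.12 (chromosome 20, 43 to 44 Mb) and in 11q13.1 to 11q13.2 (65 to 66 Mb). The latter also held the most 16HBE14o--only regions of any bin, 28, beside 6 Calu3-only regions.

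On many chromosomes the lines departed from the decile expectation in opposite directions, which the measure partly builds in. A shared pair counts in both lists. A chromosome with more listed regions in 1 line therefore tends to have a low ratio there and a high ratio in the other. On chromosome 3 28.5% of 866 Calu3 regions were shared where 50.1% was expected (ratio 0.57), and 67.0% of 370 16HBE14o- regions where 40.1% was expected (1.67). On chromosome 14 the ratios were 1.51 in Calu3 (76.3% of 245 shared) and 0.75 in 16HBE14o- (34.8% of 541). On chromosome 21 they were 1.69 (36 regions) and 0.51 (121 regions), and on chromosome 6 1.32 and 0.58. Of the 23 chromosomes, 6 were below 1 in Calu3 and above 1 in 16HBE14o-, and in each of these the median percentile difference at shared pairs was above 0. A further 9 were above 1 in Calu3 and below 1 in 16HBE14o-, and in 8 of these the median difference was below 0. Calu3 had more listed regions than 16HBE14o- on 7 chromosomes. All of the 6 were among these and none of the 9, so the opposed ratios follow the numbers listed. The largest median differences were 21.6 points on chromosome 3 (248 pairs), -20.5 on chromosome 21 (26 pairs) and -17.0 on chromosome 14 (188 pairs). Other chromosomes did not follow this opposition. Chromosome 18 was low in both lists (0.70 and 0.71), as were 11 (0.71 and 0.84) and X (0.94 and 0.75). Chromosome 22 was high in both (1.23 and 1.31), with 4 others above 1 in both.

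**Figure D5:**
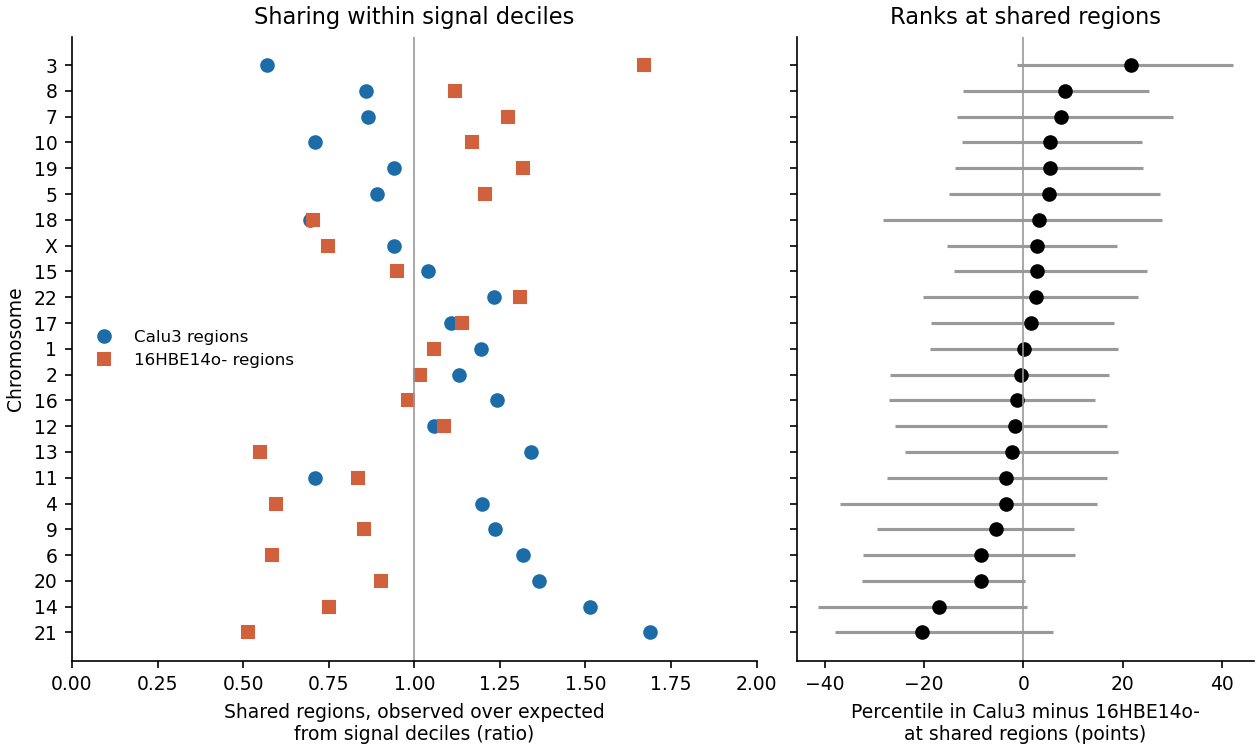
Left, ratio of shared regions observed to those expected from signal deciles (horizontal axis) for the Calu3 and 16HBE14o- regions of each chromosome; right, percentile in Calu3 minus percentile in 16HBE14o- at shared pairs, median (point) and quartiles (line). Chromosomes are ordered by that median, from 21.6 points on chromosome 3 at the top to -20.5 on chromosome 21 at the bottom.

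Regions of a list were also shared more often where their nearest region was shared. Of Calu3 regions whose nearest Calu3 region was 10 to 100 kb away, 58.5% were shared where that neighbour was shared and 43.5% where it was Calu3-only, a Mantel-Haenszel odds ratio within deciles of 1.90 (1.66 to 2.18). In 16HBE14o- the shares were 52.4% and 37.5% (odds ratio 1.94, 1.72 to 2.19). With neighbours at 100 to 1000 kb the odds ratios were 2.16 (1.81 to 2.58) and 2.28 (1.91 to 2.72), and with neighbours within 10 kb 1.74 (1.42 to 2.12) and 1.86 (1.55 to 2.24). Each region can be both a region and a neighbour here, so these intervals are too narrow. The odds ratios did not fall with distance, and they were stratified by decile and not by chromosome. A relation between neighbours and differences between chromosomes or wide stretches therefore cannot be told apart.

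Shared and line-only regions also differed in the Giemsa stain of their bands, a measure of chromosome structure in which dark bands are poor in genes and replicate late. Unstained bands make up 42.4% of the length of these chromosomes and held 63.4% of shared Calu3 regions, 59.3% of Calu3-only and 58.7% of 16HBE14o--only regions. The darkest bands make up 16.4% of the length and held 3.10% of shared Calu3 regions, 5.22% of Calu3-only and 6.29% of 16HBE14o--only regions. Within the darkest bands the regions were shared less than their deciles gave, at a ratio of 0.78 in Calu3 and 0.68 in 16HBE14o-. In unstained bands the ratios were 1.03 in both lists.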

How the data were processed

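The series holds 6 ChIP-seq samples, of which the 4 BRD8 samples are compared here, with the 2 CTCF samples as a second readout. The authors combined the 2 replicates of an experiment into 1 IDR list, which keeps peaks ranked alike in both, according to the series' design text. Per the file headers the lists are in narrowPeak format on hg19. The aligner, peak caller, control and IDR settings are not given in the sources used here, and the depth behind a list is unknown. The deposited signal (column 7) ranked peaks within a list only. The deposited score columns were not used, and the summit offset, a number of another kind in the deposited lists, was added to the peak's start. The header of each list named the same line and protein as the labels.

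Overlaps, percentiles, bins and Mantel-Haenszel odds ratios came from Python 3.11.15 code that was tested on simulated data. It used scipy 1.17.1, pandas 2.3.3 and numpy 2.4.6. Chromosome lengths and bands of hg19 came from circlize 0.4.16 in R 4.3.3, and figures were drawn with matplotlib 3.10.9. A region was placed in a bin by its strongest summit. With 1 pooled list per line no p-value was computed. Intervals are 95% exact Clopper-Pearson for shares. Those of odds ratios are Robins-Breslow-Greenland intervals. Both treat regions as independent and cover counting error only. Named are the 5 shared pairs of highest lower percentile, the 5 of largest difference in each direction, the 5 strongest line-only regions per line with a gap over 100 kb, the 6 leaning bins per line with the most line-only regions, the 5 bins of lowest and 5 of highest ratio per line, the longest runs, and the regions of most peaks. The bins with the most shared regions, the strongest 16HBE14o- region, the second runs of each line, the Giemsa stain and the comparison of neighbours were added after the values were seen. The regions, rules and bins were chosen with earlier results of these data known. No genome of hg19 was used here, so no sequence is printed and gene names are background for a band.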

Additional observations from a re-analysis of the deposited data

How the results depend on the processing

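Both CTCF odds ratios stayed above 1 under every alternative run for them. More bins leaned to Calu3 than to 16HBE14o- each time, but by a margin that varied widely. The numbers were 88 against 43 with lists of equal length and 110 against 72 with every deposited peak as a region. They were 90 against 88 with 2 Mb bins, 28 against 27 with 0.5 Mb bins and 23 against 21 in the upper 50% of each list. In the main setting equal numbers gave a ratio of 1.32 towards Calu3. There 7 Calu3-only regions against 1 of 16HBE14o- alone counted as leaning, and the reverse did not. In the main setting chromosome 3 alone held 31 of the 75 bins leaning to Calu3, and 1 of the 59 leaning to 16HBE14o-. With summits within 100 bp the shared share was 46.0% of Calu3 and 39.6% of 16HBE14o- regions, the median summit distance 26 bp and the Calu3 CTCF odds ratio 4.61. In the upper 50% of each list by signal the shares were 45.2% and 39.0%, the median percentile difference 23.2 points, the summit distance 26 bp, the 16HBE14o- odds ratio 3.81, the bins leaning to Calu3 and 16HBE14o- 23 and 21, the bins of low sharing 63 and 69, and the fullest 5% of bins held 39.1% and 35.0% of the line-only regions. That setting leaves fewer regions per bin by construction. With lists of equal length the shares were 46.3% and 46.5%, so the higher share of Calu3 was not kept, and the median percentile difference was 22.0 points. With 200 bp around the summit the 16HBE14o- share was 42.3%. With every deposited peak as a region rho at shared regions was 0.208, the median percentile difference 23.2 points, the summit distance 35 bp, the Calu3 odds ratio 4.28 and the Calu3-only share of the fullest bins 35.0%. With 0.5 Mb bins 28 and 27 bins leaned and the fullest 5% held 37.9% and 31.7%; with 2 Mb bins the fullest held 30.1% and 25.4%. The other 71 values stayed within the interval of the value given, or within 1.5 times a count. The alternative with strata of decile and number of peaks, chosen after seeing the data, gave a Calu3 odds ratio of 3.99. No replicate could be left out and no paired analysis was possible because each deposited list pools both replicates. Depth limits every line-only call, since a region below the authors' threshold is not shown to lack BRD8.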
